A study of Homo sapiens with 12 samples.

Results

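The genes described here are 10 nucleic acid sensors of innate immunity and their immediate partners. They were chosen by gene symbol, DDX58, IFIH1, DHX58, MAVS, TLR3, EIF2AK2, IFI16, ADAR, TBK1 and DDX60, from the 58735 genes of the deposited count table, by a rule that uses no count but was set with earlier results of these data known. All 10 were found in the table and all 10 passed the low-count filter that left 17829 genes for testing, although DHX58 reached it only through the GFI1 libraries. The table holds mRNA sequencing read counts of A549, a human lung adenocarcinoma line that grows attached to plastic, in 12 libraries of 17014188 to 20748677 counts each. The 4 groups of 3 libraries were attached control cells, attached cells with GFI1, control cells kept floating for 48 h, and floating cells with GFI1, also kept for 48 h. Floating cells were held in forced suspension, and all 4 groups were grown in RPMI1640 with 10% fetal bovine serum.

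GFI1 is a zinc finger protein, mostly a repressor of transcription, that regulates early blood cell development. The study's methods describe it as delivered by a lentivirus under the hPGK promoter with eGFP behind it, with GFP-positive cells sorted for sequencing. The labels name no vector for the controls. The study's methods give the A549 controls of the animal assays an empty vector and do not describe the controls of the sequencing. GFI1 and the virus that brought it therefore cannot be told apart here. GFI1 reads numbered 4 to 12 per control library and 5154 to 12796 per GFI1 library, and they followed the labels in all 12 libraries. Its CPM, the reads of a gene as a share of its library after TMM scaling for library composition, averaged 290 ± 4.4 (SD, n = 3) in attached and 560 ± 138 in floating GFI1 cells, so the level of the introduced gene also differed between the attached and the floating GFI1 libraries. The epithelial keratins KRT7, KRT8 and KRT18 had at least 8281 counts in every library. The summed CPM of 6 epithelial markers ran from 10386 to 10986 in attached control and 4222 to 4339 in attached GFI1 libraries. It ran from 6529 to 6938 in floating control and 3039 to 3411 in floating GFI1 libraries. Most of this sum came from the keratins just named. Mean CPM of CDH1, also among the markers, was 120 for attached control against 6.45 for attached GFI1. Afloat, CDH1 averaged 85.4 CPM without GFI1 and 3.99 CPM with it. EPCAM had 6 to 45 counts per library and lower means with GFI1. KRT19 had 13 to 89 counts and higher means with GFI1, attached and afloat. Of 4 alveolar type II markers the surfactant genes reached at most 14 counts, and NKX2-1 had 2 to 9 counts in control and 6 to 36 in GFI1 libraries. Of 5 blood cell markers CD3E was at 0, PTPRC at no more than 1 and SPI1 at no more than 7, while CD14 had 73 to 229 counts. Of 4 fibroblast markers DCN was at 0 and LUM at no more than 3, COL1A1 had 53 to 256 counts and was lower with GFI1 (log2 -1.03 and -1.41), and PDGFRB had 1 to 5 counts in control and 35 to 66 in GFI1 libraries. Of 3 endothelial markers, CDH5 had 1 to 3 counts in control and 52 to 89 in GFI1 libraries. VWF had 0 to 4 in control and 11 to 18 in GFI1 libraries, and PECAM1 had at most 10. The summed CPM of the 3 markers was 0.109 to 0.602 in control and 3.55 to 5.52 in GFI1 libraries. The part of these marker shifts in the results below was not tested.

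Cells detect foreign or misplaced nucleic acid with a small set of receptors. RIG-I (DDX58) and MDA5 (IFIH1) bind viral RNA in the cytosol and signal through MAVS on mitochondria to the kinase TBK1, which activates IRF3 and the transcription of interferon genes, while LGP2 (DHX58) lacks the signalling domains and tunes the other receptors. TLR3 senses RNA in endosomes, PKR (EIF2AK2) stops translation when it binds RNA duplexes, ADAR edits such duplexes so that they are no longer sensed, IFI16 binds DNA, and DDX60 is an antiviral helicase. Several of these genes are themselves transcribed in response to interferon, through a promoter element called the ISRE.

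Promoter sequences are shown because interferon-responsive elements lie in this part of a gene. RefSeq promoter windows on GRCh38.p14, from 250 bases before to 50 bases after a start site, were held for 9 of the 10 genes in 12 windows, and DHX58 had none in the table used. The core letters of the ISRE, GAAANNGAAA or TTTCNNTTTC on the other strand, occurred in 3.57% of 35116 windows of this length. They occurred in 4 of the 12 windows of the members, those of IFIH1, DDX60, EIF2AK2 and TLR3. The stretches follow in the direction of each gene, with the matched letters in capitals and 10 bases on either side.
IFIH1, chr2:162318686-162318715, minus strand, 21 bases before the start site: gaagagaatcGAAACAGAAAccaaagtcag
DDX60, chr4:168318821-168318850, minus strand, 88 bases before: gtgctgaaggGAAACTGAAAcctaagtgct
DDX60, chr4:168318786-168318815, minus strand, 53 bases before: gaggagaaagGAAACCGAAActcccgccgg
EIF2AK2, chr2:37156967-37156996, minus strand, 6 bases before: agtccaagggGAAAACGAAActgagaacca
TLR3, chr4:186069142-186069171, plus strand, 4 bases before, on the opposite strand: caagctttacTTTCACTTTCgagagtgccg

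IFIH1 held another pair of matches that overlap each other, beginning 159 and 153 bases before its start. The letters TTCNNNGAA of the GAS, the element of interferon gamma signalling, occurred in 7.66% of windows, with 2 places in TLR3 and 1 in DDX60. A core of the GFI1 binding motif, AATCNNNGC or GCNNNGATT on the other strand, occurred in 11% of windows, and among the members in DDX58 and in ADAR, where 1 place lay in 2 overlapping windows. The DDX58 stretch is shown because, among the cytosolic RNA receptors with a window, only DDX58 held these letters. Their part in the level of DDX58 was not tested.
DDX58, chr9:32526250-32526278, minus strand, 72 bases before the start site: ttcctcggaaAATCCCTGCtttccccgct

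MAVS, IFI16 and TBK1 held none of the 3 letter patterns, which says only that the letters are not in these windows. Whether any match is bound in A549 was not measured.

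**Figure D1:**
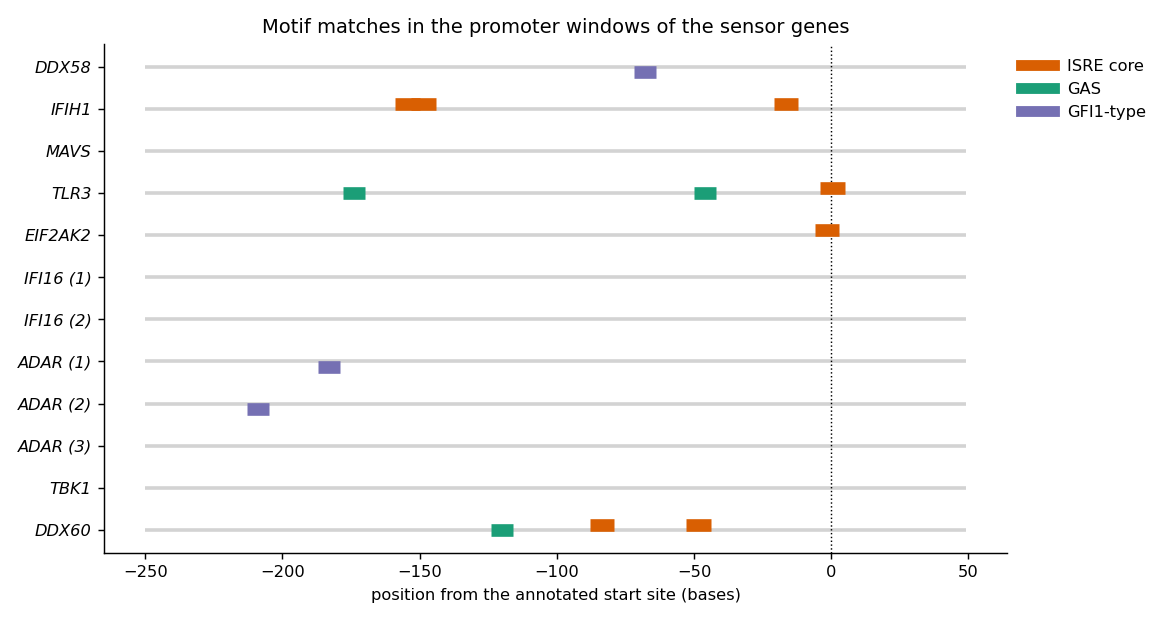
Positions of the letter matches in the promoter windows of 9 sensor genes. The x axis is the distance in bases from the annotated start site (dotted line), each grey line is 1 window, and numbers in brackets separate windows of 1 gene. ISRE core matches sit in IFIH1, TLR3, EIF2AK2 and DDX60.

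With GFI1, the cytosolic RNA receptors and DDX60 rose most, the effectors EIF2AK2 and ADAR rose less, TBK1 rose slightly and the adaptor MAVS fell. In attached cells 7 of the 10 members were higher and 1 was lower by edgeR's quasi-likelihood test at a Benjamini-Hochberg adjusted p of 0.05, where 29.5% of all tested genes were higher and 32.8% lower. In floating cells 7 were higher and 2 lower, where 29.3% of all genes were higher and 31.1% lower. DHX58 was among the higher members in both. It passed the filter only through the GFI1 libraries, so its call adds little to these counts. The CPM of the control and GFI1 libraries did not overlap for 9 members in attached and 10 in floating cells, against 67% and 64.4% of all genes. DHX58 was counted here and in the medians that follow, with the same limit. The median log2 fold change of the members was 0.64 in attached and 0.65 in floating cells, beside -0.01 and 0.01 over all tested genes. Scaled by library size alone, the median over all genes moved to 0.14 in both comparisons, and 7001 genes were called higher and 4375 lower in attached cells in place of 5258 and 5844. In floating cells that scaling gave 6840 higher and 4308 lower in place of 5223 and 5547, and the calls of the 10 members were the same under it in both comparisons. The labels do not say whether the 3 libraries of a group came from separate cultures, so the p-values measure the spread between these libraries, which may be technical.

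**Figure D2:**
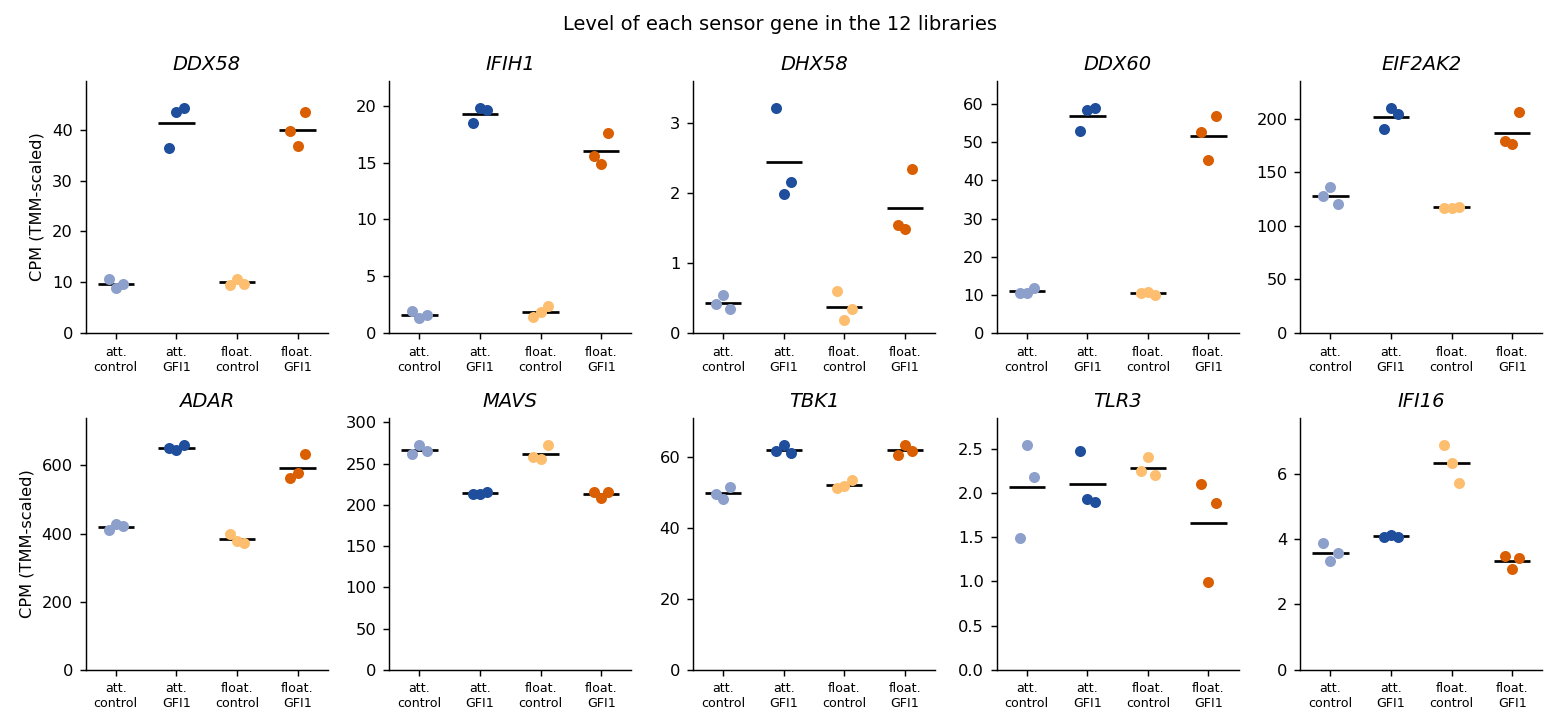
CPM of the 10 sensor genes in each of the 12 libraries. Each point is 1 library, the bar is the mean of 3, att. is attached and float. is floating, and each panel has its own linear axis from 0. The GFI1 libraries lie above the control libraries for DDX58, IFIH1, DHX58, DDX60, EIF2AK2, ADAR and TBK1 and below them for MAVS.

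IFIH1, which encodes the receptor MDA5 (ENSG00000115267, chr2:162267079-162318703, minus strand, coordinates on hg38 as deposited here and for the other genes), rose most of the 10. Its CPM was 1.91, 1.30 and 1.55 in the attached control libraries and 18.5, 19.8 and 19.6 in the attached GFI1 libraries. In the floating libraries it was 1.42, 1.81 and 2.38 in control and 15.6, 14.9 and 17.6 in GFI1 cells. Every GFI1 library lay far above every control library. The increase was 12.2-fold in attached cells (95% interval 9.91 to 15, log2 3.61 ± 0.14 SE, adjusted p = 3.79e-17 by edgeR's quasi-likelihood test) and 8.54-fold in floating cells (6.95 to 10.5, log2 3.09 ± 0.14, adjusted p = 8.72e-16). It ranked 150 from the top among the 17829 genes by log2 fold change in attached and 174 in floating cells. The difference of the effect between floating and attached cells was -0.51 ± 0.24 on the log2 scale (interval -1.0 to -0.02) and did not pass the threshold (edgeR adjusted p = 0.197).

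DDX58, named RIGI in newer annotation, encodes RIG-I (ENSG00000107201, chr9:32455705-32526324, minus strand). Its CPM was 10.7, 8.96 and 9.58 in attached control and 36.4, 43.6 and 44.3 in attached GFI1 libraries. In floating cells it was 9.48, 10.7 and 9.74 in control and 39.7, 36.9 and 43.5 with GFI1. The groups with and without GFI1 did not overlap, while attached and floating libraries of the same kind did. The rise was 4.27-fold in attached (3.75 to 4.86, log2 2.09 ± 0.09, edgeR adjusted p = 2.2e-16) and 4.02-fold in floating cells (3.53 to 4.59, log2 2.01 ± 0.09, edgeR adjusted p = 6.12e-16).

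DHX58, the gene of the regulator LGP2 (ENSG00000108771, chr17:42101404-42112733, minus strand), was the scarcest of the RIG-I-like receptor genes in reads. It had 7, 10 and 6 counts in attached control, 57, 43 and 43 in attached GFI1, 10, 3 and 6 in floating control and 28, 27 and 47 in floating GFI1 libraries. The control libraries were all at or under 10 counts and the GFI1 libraries all at or over 27. A gene that enters the test only through its high group has to differ, so the call adds little to the counts themselves. The log2 fold change was 2.46 ± 0.35 in attached (edgeR adjusted p = 1.01e-06) and 2.26 ± 0.38 in floating cells (edgeR adjusted p = 1.21e-05), with intervals of 1.74 to 3.17 and 1.48 to 3.03.

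DDX60, an antiviral helicase related to the RIG-I-like receptors (ENSG00000137628, chr4:168216293-168318807, minus strand), had the smallest SE of the strongly rising members. Its CPM was 10.6, 10.5 and 11.7 in attached control and 53.0, 58.4 and 59.0 in attached GFI1 libraries, and 10.4, 10.8 and 10.0 in floating control against 52.8, 45.5 and 56.8 in floating GFI1 libraries. No control library came near a GFI1 library. The rise was 5.2-fold in attached (log2 2.38 ± 0.08, edgeR adjusted p = 1.65e-18) and 4.98-fold in floating cells (log2 2.32 ± 0.08, edgeR adjusted p = 4.66e-18). Its neighbour and paralogue DDX60L, with CPM means of 35.4, 328, 27.9 and 270 in attached control, attached GFI1, floating control and floating GFI1 cells, rose by 3.21 ± 0.05 and 3.27 ± 0.05 on the log2 scale. How the counting treated reads that fit both paralogues is not given in the sources used here.

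MAVS, the mitochondrial adaptor of RIG-I and MDA5 (ENSG00000088888, chr20:3846799-3876123, plus strand), moved the other way from the receptors. Its CPM was 262, 273 and 265 in attached control and 213, 213 and 216 in attached GFI1 libraries. In floating cells it was 258, 256 and 273 in control and 216, 208 and 216 with GFI1. All 6 GFI1 libraries lay below all 6 control libraries. The level with GFI1 was 0.802 of control in attached (log2 -0.32 ± 0.04, edgeR adjusted p = 1.67e-07) and 0.813 in floating cells (log2 -0.30 ± 0.04, edgeR adjusted p = 4.95e-07). Scaled by library size only, the log2 fold change was -0.17 in both and still passed the test, with adjusted p = 0.00094 and 0.00105.

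TBK1, the kinase below MAVS and STING (ENSG00000183735, chr12:64451880-64502108, plus strand), rose modestly. It was at 49.8, 48.2 and 51.6 CPM in attached control and 61.7, 63.6 and 61.3 CPM in attached GFI1 libraries. The floating libraries held 51.3, 51.8 and 53.5 CPM in control and 60.8, 63.5 and 61.9 CPM with GFI1. The ranges were narrow and did not overlap. The increase was 1.25-fold in attached (log2 0.32 ± 0.05, edgeR adjusted p = 2.16e-06) and 1.19-fold in floating cells (log2 0.25 ± 0.05, edgeR adjusted p = 7.16e-05).

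EIF2AK2, which encodes PKR (ENSG00000055332, chr2:37099210-37157065, minus strand), and ADAR, which encodes the editing enzyme ADAR1 (ENSG00000160710, chr1:154582057-154628013, minus strand), rose by nearly equal amounts. EIF2AK2 was at 128, 136 and 120 CPM in attached control, 190, 210 and 204 in attached GFI1, 117, 117 and 118 in floating control and 179, 176 and 206 in floating GFI1 libraries. ADAR was at 410, 428 and 423 CPM in attached control, 652, 645 and 661 in attached GFI1, 398, 378 and 373 in floating control and 564, 579 and 633 in floating GFI1 libraries. For both genes the groups with and without GFI1 were separate. EIF2AK2 rose 1.57-fold in attached (log2 0.65 ± 0.06, edgeR adjusted p = 1.55e-10) and 1.59-fold in floating cells (log2 0.67 ± 0.06, edgeR adjusted p = 1.07e-10). ADAR rose 1.55-fold in both (log2 0.63 ± 0.04, edgeR adjusted p = 4.14e-12 and 5.31e-12). EIF2AK2 overlaps GPATCH11 on the other strand, which had 275 to 528 counts per library and a log2 fold change of 0.27 and 0.22, and since the strand setting of the counting is not given the reads of the overlap cannot be told apart. Gene counts also do not separate the interferon-inducible long form of ADAR from its constitutive short form.

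TLR3, the endosomal RNA receptor (ENSG00000164342, chr4:186069152-186088069, plus strand), was the only member that passed the test in neither GFI1 comparison. Its CPM was 1.49, 2.55 and 2.18 in attached control, 2.48, 1.94 and 1.90 in attached GFI1, 2.25, 2.41 and 2.21 in floating control and 2.10, 0.992 and 1.89 in floating GFI1 libraries. The attached groups overlapped, and the floating groups were separate with the second floating GFI1 library the lowest of the 12. The log2 fold change was 0.01 ± 0.25 in attached (interval -0.51 to 0.53, edgeR adjusted p = 0.98) and -0.46 ± 0.26 in floating cells (interval -0.99 to 0.08, edgeR adjusted p = 0.131). With 18 to 47 counts per library, changes within these intervals were not detectable.

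IFI16 is a DNA sensor of the PYHIN family (ENSG00000163565, chr1:158999968-159055155, plus strand). It was the only member for which the difference in GFI1 response between attached and floating cells passed the test. Its CPM was 3.87, 3.31 and 3.56 in attached control and 4.06, 4.11 and 4.06 in attached GFI1 libraries. In floating cells it was 6.88, 6.32 and 5.72 in control and 3.47, 3.09 and 3.43 with GFI1. The 3 floating control libraries lay above the other 9, which spanned 3.09 to 4.11. In attached cells the log2 fold change with GFI1 was 0.19 ± 0.15 (interval -0.12 to 0.50, edgeR adjusted p = 0.284), and in floating cells -0.92 ± 0.14, to 0.530 of control (edgeR adjusted p = 4.98e-06).

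The direct test of that difference, the interaction of GFI1 and suspension, gave -1.11 ± 0.21 for IFI16 (interval -1.53 to -0.68, edgeR adjusted p = 0.000634), where 10.8% of all genes passed in either direction. The other 9 members did not pass it. CD14, the only blood cell marker above 10 counts in every library, changed in the same direction as IFI16 with suspension of control cells (1.20 ± 0.15) and with GFI1 in floating cells (-0.83 ± 0.15). It rose with suspension of GFI1 cells by 0.62 ± 0.16, where IFI16 was at -0.29 ± 0.15, and its interaction of -0.57 ± 0.23 did not pass (edgeR adjusted p = 0.113). The summed CPM of the 5 blood cell markers was 4.45 to 7.12 in attached control, 4.45 to 5.36 in attached GFI1, 10.3 to 14 in floating control and 6.57 to 7.50 in floating GFI1 libraries, with CD3E at 0 and PTPRC at no more than 1 count, and their part in the IFI16 values was not tested. The other sensors of the same PYHIN family, AIM2, MNDA and PYHIN1, had at most 3 counts in any library.

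**Figure D3:**
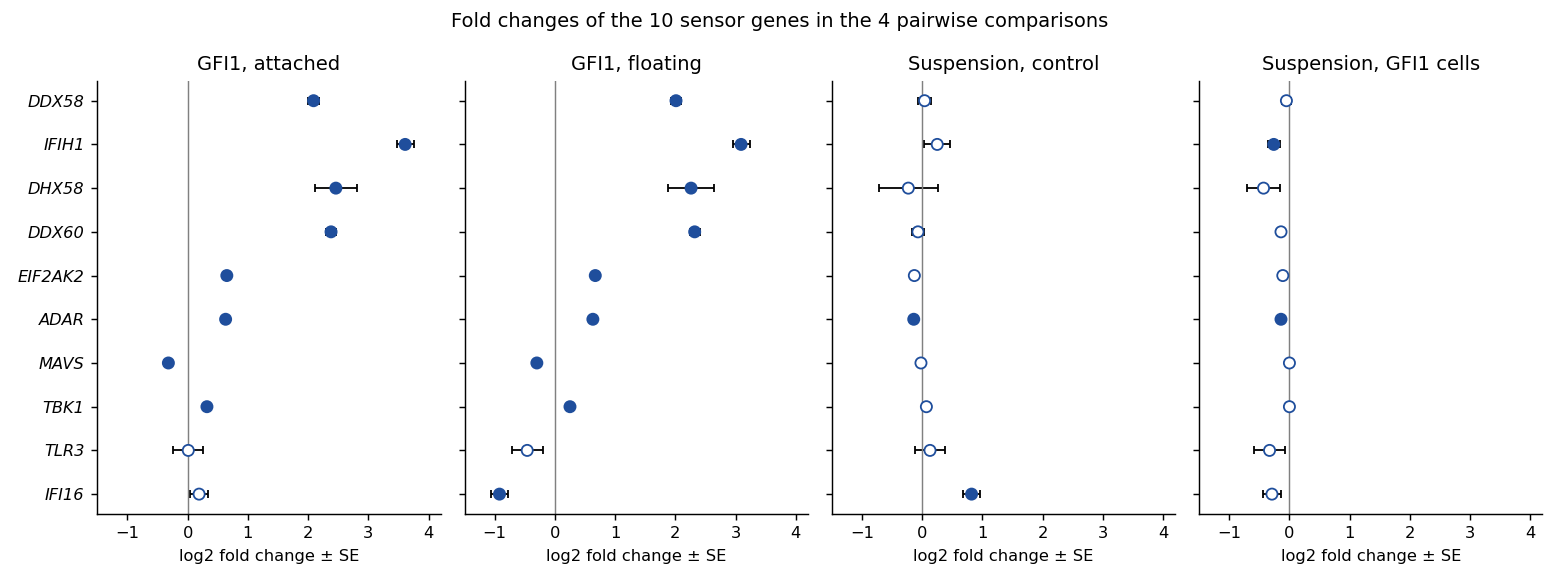
Log2 fold change of each sensor gene in the 4 pairwise comparisons. Points are estimates of edgeR's fit, bars are 1 SE, and filled points passed an adjusted p of 0.05. The largest values are those of IFIH1, at 3.61 and 3.09 with GFI1, and IFI16 is at 0.82 with suspension of control cells.

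With suspension alone, 1 member was higher and 1 lower in control cells after 48 h afloat, where 19.6% of all genes were higher and 20.5% lower. With so few members, these counts cannot tell the sensors from all tested genes. IFI16 rose 1.76-fold (log2 0.82 ± 0.14, edgeR adjusted p = 5.16e-05), and ADAR fell to 0.910 (log2 -0.14 ± 0.04, edgeR adjusted p = 0.0177). The ADAR call was lost when attached control replicate 2 or 3 or floating control replicate 2 or 3 was left out, with adjusted p up to 0.0787. DDX58, at 0.04 ± 0.11, and DDX60, at -0.07 ± 0.10, were close to 0, with intervals of -0.19 to 0.26 and -0.29 to 0.14. IFIH1 was at 0.25 ± 0.22 (interval -0.20 to 0.70), and EIF2AK2 at -0.13 ± 0.06 with an adjusted p = 0.073 by edgeR.

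In GFI1 cells, suspension left no member higher and 2 lower, where 15% of all genes were higher and 16.3% lower. These counts are likewise too small to set the members apart from all tested genes. ADAR fell to 0.907 (log2 -0.14 ± 0.04, edgeR adjusted p = 0.0166) and IFIH1 to 0.833 (log2 -0.26 ± 0.10, edgeR adjusted p = 0.044). The ADAR call was lost without attached GFI1 replicate 1, attached GFI1 replicate 3 or floating GFI1 replicate 1, with adjusted p up to 0.0894. The IFIH1 call was lost with DESeq2 (adjusted p = 0.0731), without the low-count filter (0.065) and in 6 of the 12 fits that left out 1 library, where adjusted p ran from 0.0173 to 0.136. IFI16 was at -0.29 ± 0.15 (interval -0.60 to 0.02), DHX58 at -0.43 ± 0.27 and TLR3 at -0.33 ± 0.26, and none of these passed. The medians of the 10 members were 0.01 in control and -0.14 in GFI1 cells, beside 0.01 and 0.00 over all genes.

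Levels of different genes were compared per length, as FPKM from the TMM-scaled CPM and the deposited gene length. In attached control cells ADAR was highest at 43.4 ± 0.992 FPKM (SD, n = 3), followed by MAVS at 22.6 ± 0.472, EIF2AK2 at 11.9 ± 0.737 and TBK1 at 10.5 ± 0.360. The cytosolic receptors were far scarcer, DDX58 at 2.24 ± 0.197, IFIH1 at 0.311 ± 0.0593 and DHX58 at 0.113 ± 0.0262 FPKM, with DDX60 at 1.62 ± 0.100, IFI16 at 0.676 ± 0.0528 and TLR3 at 0.308 ± 0.0803. IFIH1 and TLR3 did not differ beyond their spread. With GFI1 the gap to the downstream genes narrowed, since attached GFI1 cells held 9.51 ± 1.00 FPKM of DDX58, 8.41 ± 0.494 of DDX60 and 3.78 ± 0.139 of IFIH1 beside 18.2 ± 0.149 of MAVS and 13.1 ± 0.258 of TBK1. IFI16, at 0.769, and TLR3, at 0.313 FPKM, stayed low, and IFIH1 stood above IFI16 in both GFI1 groups and below it in both control groups.

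Ratios of members within a library need no scaling between libraries. These pairs were chosen after their values were seen and are given without a test. The ratio of DDX58 to MAVS, a receptor to its adaptor, was 0.0889 to 0.113 in the 6 control libraries and 0.463 to 0.555 in the 6 GFI1 libraries. IFIH1 to DDX58 was 0.138 ± 0.0142 in attached control, 0.399 ± 0.0297 in attached GFI1, 0.160 ± 0.0424 in floating control and 0.342 ± 0.00537 in floating GFI1 cells, so MDA5 transcripts gained on RIG-I transcripts with GFI1 in both states. TBK1 to MAVS went from 0.463 and 0.492 in the control groups to 0.720 in both GFI1 groups. EIF2AK2 and ADAR encode effectors that both bind RNA duplexes. Their ratio, EIF2AK2 to ADAR, was 0.275, 0.278, 0.277 and 0.284 in attached control, attached GFI1, floating control and floating GFI1 cells. Every library lay between 0.256 and 0.293.

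**Figure D4:**
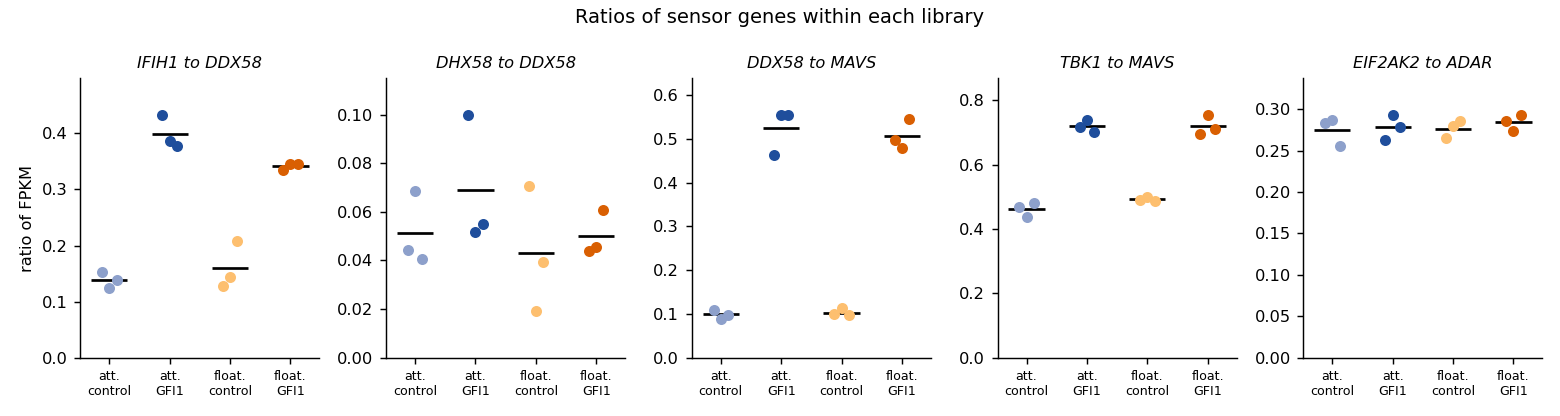
Ratios of FPKM between sensor genes within each library, by group. Points are single libraries, bars are means of 3, att. is attached and float. is floating, and each axis starts at 0. The ratio of EIF2AK2 to ADAR lies between 0.256 and 0.293 in all 12 libraries, while DDX58 to MAVS separates control from GFI1 libraries.

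The genes with the most similar pattern were sought among about 13247 genes whose log2 CPM averaged 1 or more, by the root mean square difference of centred log2 CPM over the 12 libraries. IFIH1 was closest to IFIT3, an interferon-induced antiviral gene, at 0.12. IFIT3 had log2 fold changes of 3.45 and 2.84 in the attached and floating GFI1 comparisons. PLPP3, a phospholipid phosphatase, came next to IFIH1 at 0.21, with 3.17 and 3.11 in these comparisons. DDX60 was closest to PARP9 at 0.10 and DPYD at 0.12, and DDX58 to FAT4 at 0.11 and DTX3L at 0.12. Within the group, EIF2AK2 and ADAR were nearest at 0.0595 and DDX58 and DDX60 next at 0.175, while EIF2AK2 also lay close to PBRM1 at 0.0613. IFI16 was closest to RHOBTB1 at 0.12 and to NQO1 at 0.15, whose interaction values were -0.73 and -0.57. ADAR was closest to AGRN at 0.0438 and EVC at 0.0499, and TBK1 to HIF1AN at 0.0468 and BTBD7 at 0.0479. Among the genes near MAVS was ARPC2 at 0.0406. DHX58 was closest to MCAM at 0.30 and TSHZ3 at 0.32, and TLR3 was at 0.23 from both ZNF232 and PDCD4-AS1. These differences were not scaled to the spread of each member, so they do not rank the members by closeness. The SD of log2 CPM over the 12 libraries was 1.14 for DHX58, 0.339 for TLR3 and 0.147 for TBK1.

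Other genes of RNA sensing included some that rose and some that fell. Of 24 listed partners, 21 were tested, and 11 were higher and 7 lower with GFI1 in attached cells and 10 and 7 in floating cells, with medians of 0.17 and 0.03. Over all tested genes 29.5% were higher and 32.8% lower attached and 29.3% and 31.1% floating, so the share that fell was near the background here. Scaled by library size alone the counts were 12 and 5 attached and 12 and 4 floating. Over all 17829 tested genes that scaling gave 7001 higher and 4375 lower attached, and 6840 and 4308 floating. DDX60L had the lowest adjusted p among those that rose, and DDX21, an RNA helicase of the nucleolus that also senses RNA, among those that fell, by 0.79 and 0.61 on the log2 scale. OAS1, OAS2 and OAS3 make the messenger that activates RNase L, and OASL is a relative that lacks this activity. OAS2 went from a mean of 1.1 to 19.3 CPM in attached and from 0.784 to 15.7 CPM in floating cells (log2 4.13 ± 0.23 and 4.32 ± 0.26), OAS3 rose by 0.92 and 1.02, and OASL by 1.87 and 1.29. OAS1 rose in attached cells by 0.61 ± 0.09 and was at 0.00 ± 0.09 in floating cells, a difference of -0.61 ± 0.13 that passed the interaction test (edgeR adjusted p = 0.00291). The OAS and IRF7 values, like those of CGAS, STING1 and TLR6 below, were picked out after they were seen. TRIM25, a ubiquitin ligase linked to RIG-I, rose by 0.66 and 0.75, while RNF135, another, fell by 0.33 and 0.35.

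Genes of DNA sensing included some that rose and some that fell. Of 19 listed, 14 were tested, and 3 were higher and 8 lower in each GFI1 comparison, with medians of -0.28 and -0.24. All tested genes were at 29.5% higher and 32.8% lower attached and 29.3% and 31.1% floating. Scaled by library size alone, 4 listed genes were higher and 5 lower attached, and 3 and 6 floating. Of all 17829 tested genes, 7001 were higher and 4375 lower attached under that scaling, and 6840 and 4308 floating. XRCC5, a Ku subunit, had the lowest adjusted p among those that fell, by 0.43 and 0.48, STING1 among those that rose in attached cells and ZCCHC3, a cofactor of cGAS, in floating cells at 0.49. CGAS, the cytosolic DNA sensor, and STING1, its adaptor, went in opposite directions. CGAS fell from a mean of 11.6 to 6.01 CPM in attached and from 11.0 to 5.91 CPM in floating cells (log2 -0.95 ± 0.11 and -0.90 ± 0.12), and STING1 rose from 2.58 to 5.26 and from 4.14 to 7.12 CPM (log2 1.03 ± 0.17 and 0.78 ± 0.15). TREX1 was listed at 0 in all 12 libraries and overlaps ATRIP on the same strand, so reads of the overlap cannot be told apart.

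Below the sensors, all 25 listed signalling genes were tested, with 11 higher and 5 lower in attached and 9 and 3 in floating cells. All tested genes were at 29.5% higher and 32.8% lower attached and 29.3% and 31.1% floating. The share of signalling genes higher in floating cells was near that background. Scaled by library size alone, 14 signalling genes were higher and 1 lower attached, and 14 and 2 floating. That scaling gave 7001 higher and 4375 lower attached, and 6840 and 4308 floating, among all 17829 tested genes. NLRC5 had the lowest adjusted p among those that rose (log2 2.16 and 1.96) and NFKB1 among those that fell (-0.80 and -0.76). IRF7, the interferon-inducible member of the IRF pair below MAVS, rose from a mean of 6.56 to 44.2 CPM in attached and from 8.66 to 43.4 CPM in floating cells (log2 2.75 ± 0.11 and 2.33 ± 0.11). IRF3, its constitutive partner, rose by 0.13 and 0.30.

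Most interferon genes had next to no reads, with the exception of IFNE, at 68 to 135 counts per library. Of 11 listed ligands and early outputs, 8 were not tested. IFNB1 had at most 2 counts and IFNA2 had 0 in every library, IFNL1, IFNL2 and IFNL3 had at most 3, CXCL10 at most 7 and CXCL11 at most 14. Of the 3 tested, CCL5 rose by 1.33 ± 0.34 in attached and 1.89 ± 0.37 in floating cells, with 3 to 67 counts per library. IFNE was at 0.34 ± 0.17 and -0.16 ± 0.16 and passed in neither. Scaled by library size alone, IFNE passed in attached cells at 0.49 (edgeR adjusted p = 0.0147). The reads of IFNA1 are hard to tell from those of near-identical interferon genes. IFNA1 had 5 to 8 counts in attached control, 10 to 12 in attached GFI1, 13 to 19 in floating control and 7 to 9 in floating GFI1 libraries. It entered the test through floating control, where it was high, so no fold or p is given.

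**Figure D5:**
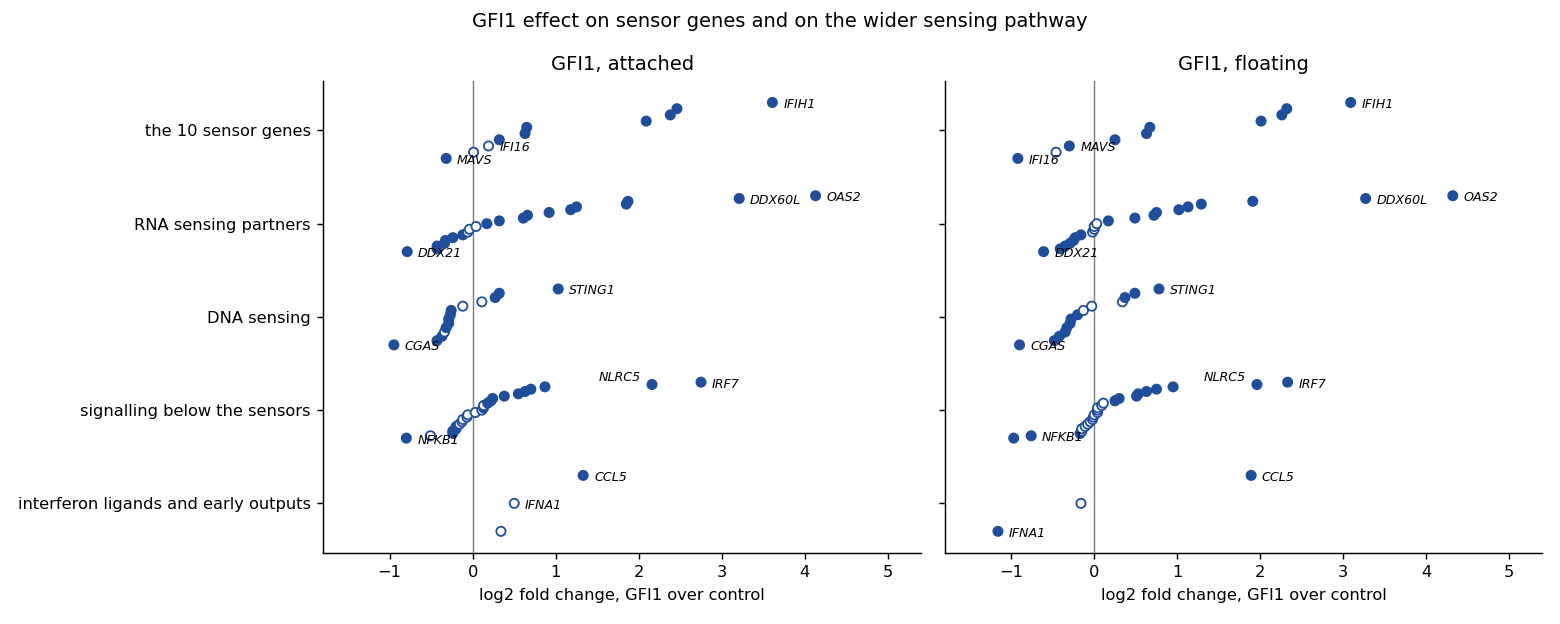
Log2 fold change with GFI1 of the 10 sensor genes and of the tested genes of 4 wider lists, in attached and in floating cells. Each point is 1 gene, filled where it passed an adjusted p of 0.05 by edgeR, and points are spread vertically by rank within a list. IFIH1, DDX60L, OAS2, IRF7 and NLRC5 lie on the right in both panels, and CGAS and NFKB1 on the left.

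Relatives of the sensors did not all follow them. Of the 4 eIF2alpha kinases EIF2AK2 was the only one that rose. EIF2AK4, the amino acid sensor GCN2, fell by 0.50 and 0.59 on the log2 scale and EIF2AK1, the heme sensor, by 0.20 and 0.13, while EIF2AK3, the sensor of endoplasmic reticulum stress, was at -0.17 and -0.08 and did not pass. Under scaling by library size alone EIF2AK4 still fell, by 0.36 and 0.46, whereas EIF2AK1, at -0.05 and -0.01, no longer passed and EIF2AK3 in floating cells turned to 0.05. ADARB1, the other catalytically active editing enzyme, rose more than ADAR, from 11.6 ± 1.30 to 41.7 ± 3.13 CPM in attached cells (log2 1.85 ± 0.08) and from 11.7 ± 0.239 to 44 ± 3.66 CPM in floating cells (log2 1.91 ± 0.08), and ADARB2 had at most 1 count.

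Among the 10 Toll-like receptors 6 were tested. TLR4, the endotoxin receptor, had 21 to 26 counts in attached control and 25 to 34 in floating control libraries, but 0 to 3 and 0 to 1 in the GFI1 libraries, so it entered the test only through the control groups where it was high, and no fold or p is given. TLR5, the flagellin receptor, fell by 0.59 ± 0.23 in attached and 1.51 ± 0.25 in floating cells, and the attached call was lost when scaled by library size alone (edgeR adjusted p = 0.0968). TLR6 rose by 0.59 ± 0.07 in attached cells and was at -0.10 ± 0.07 in floating cells, or at 0.03 when scaled by library size alone, and the difference of -0.70 ± 0.10 passed the interaction test (edgeR adjusted p = 3.19e-05). TLR10 had 0 to 2 counts in attached control, 8 to 14 in attached GFI1, 3 to 7 in floating control and 8 to 18 in floating GFI1 libraries, and likewise entered the test only through its high groups. TLR1 passed in neither comparison, and TLR2, TLR7, TLR8 and TLR9 had at most 3 counts.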

How the data were processed

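Per the labels and the study's methods, polyadenylated RNA of A549 cells was sequenced. The authors deposited raw read counts per gene for 12 libraries, with gene symbols, coordinates and gene length. The study's methods name Hisat2 and featureCounts on hg38, whereas the submitters' processing notes list Bowtie2 and HTSeq with hg38. Annotation release and strand setting are not given in the sources used here. If overlapping or repeated sequence was left uncounted, genes such as TREX1 would be understated.

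Counts were tested with edgeR 4.0.16 in R 4.3.3 by its quasi-likelihood test, after filterByExpr (minimum count 10, minimum total 15) and TMM scaling, in 1 fit of all 12 libraries with 4 group means. The biological coefficient of variation was 4.86%. Contrasts were GFI1 against control in attached and in floating cells, floating against attached in control and in GFI1 cells, and the interaction. P-values were adjusted by Benjamini-Hochberg over 17829 genes, with a threshold of 0.05 and no fold threshold. The standard error is the log2 fold change over the root of F. Mean log2 CPM used a prior count of 2. Totals of 17014188 to 20748677 counts set the precision, and low genes carry wide intervals. TMM factors were 0.939 to 0.971 in control and 1.04 to 1.06 in GFI1 libraries. Library pairs of a group had a chi-square of 2.01 to 11.9 per gene, above the 1 that counting noise gives, so none was a repeat deposit. The floating GFI1 pairs were least alike, at 4.84 to 11.9, and pairs of the other groups were at 2.01 to 3.76. Scripts were tested on simulated data.

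Named genes were the 10 members, GFI1, the other members of 3 families, DDX60L, the gene of lowest adjusted p in each direction of each list, and 2 nearest patterns per member, of which 1 is not reported here. Members and lists were chosen with earlier results of these data known. Promoter windows were RefSeq's. Alternatives were DESeq2 1.42.0, RLE size factors, library size only, no filter, only the groups compared, a replicate block, and leaving out each library. Columns of the authors' own comparisons were not used.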

Additional observations from a re-analysis of the deposited data

Results flagged for a closer look

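The GFI1 effect on IFI16 differed between floating and attached cells by -1.11 on the log2 scale (SE 0.21, edgeR adjusted p = 0.000634). It was picked out because the difference itself passed the test. All 3 floating control libraries stood above the other 9, and each of the 12 fits that left out 1 library kept the difference past the threshold, at -1.17 to -1.04. Suspension of control cells also raised the marker CD14, and the introduced GFI1 had a higher CPM in floating than in attached GFI1 cells (log2 0.95 ± 0.10). The part of either in the IFI16 value was not tested.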

How the results depend on the processing

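Of 889 member values recomputed under alternatives, 843 had the same direction and call, 6 gained a call, 15 lost one and 25 turned direction. No value that turned was past the threshold in either fit, and the largest of them was 0.29 in size. The counts of members called with GFI1 were 8 in attached and 9 in floating cells, and 1 for the interaction, under every alternative. DHX58, with the limit given above, is among the 8 and the 9. In the suspension of control cells, leaving out 1 library gave 1 to 3 called members in place of 2, with 1 without attached control replicate 2, floating control replicate 2 or floating control replicate 3. In the suspension of GFI1 cells DESeq2 and the fit with no low-count filter each gave 1 called member in place of 2, and leaving out 1 library gave 0 to 4, with 0 without attached GFI1 replicate 1, attached GFI1 replicate 3 or floating GFI1 replicate 1, and 4 without floating GFI1 replicate 3, where EIF2AK2 (adjusted p = 0.00368) and DDX60 (0.0188) passed as well in edgeR's fit. With no low-count filter TLR3 in the attached GFI1 comparison was at -0.01, MAVS and TBK1 in the suspension of GFI1 cells at 0.00, and ADAR in the interaction at 0.01. EIF2AK2 in the suspension of control cells passed with no filter (edgeR adjusted p = 0.0327) and with only the groups compared (0.0164). The cause of these changes was not tested.

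Leaving out 1 library, the GFI1 value of TLR3 ran between -0.18 and 0.18 attached and between -0.64 and -0.19 afloat. In the suspension of control cells DDX58 ran from -0.02 to 0.10, DHX58 from -0.72 to 0.08 and TLR3 from -0.05 to 0.31. In the suspension of GFI1 cells DDX58 ran from -0.13 to 0.00, MAVS from -0.02 to 0.01 and TBK1 from -0.03 to 0.02. In the interaction DHX58 ran from -0.52 to 0.29, MAVS from -0.00 to 0.05, EIF2AK2 from -0.05 to 0.07, ADAR from -0.05 to 0.03 and DDX60 from -0.14 to 0.00. Counts of 3 to 57 for DHX58 and 18 to 47 for TLR3 limit what could be seen.

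Replicate numbers are shared between groups, but the correlations of the deviations of same-numbered libraries ran from -0.0162 to 0.00889, so the numbers were not taken to pair the libraries. With a replicate block, members called were 8, 9, 2, 2 and 1 in the 5 comparisons, genes called with GFI1 were 11054 in attached and 10713 in floating cells, and no call of a member changed.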
